A study of Homo sapiens with 4 samples.

Results

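The genes of cholesterol and fatty acid synthesis under the sterol regulatory element-binding proteins (SREBPs), with the liver X receptor (LXR) genes and the efflux genes set beside them, were examined in Jurkat cells after LEF1 knockdown. Of 37 genes listed by symbol, 33 were measured, out of 19775 genes that the array reads through single-symbol probe sets. FDFT1, CYP51A1, FADS1 and NR1H2 were not measured here, because no probe set was annotated to them alone. Each gene was represented by its single-symbol probe set with the highest mean signal over the 4 arrays, a choice that does not use the difference between the groups.

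The groups were LEF1 siRNA-transfected (siLEF1) cells and non-targeting siRNA-transfected (siNT) cells, with 2 arrays each. Jurkat is a human T-cell acute lymphoblastic leukemia line, a single transformed line, and both groups had received 100 nM of siRNA pool with the same transfection reagent 24 h before RNA extraction. The labels call the replicates biological, and no array of untransfected cells was analysed here. Values are log2 signals after robust multichip average (RMA) normalization by the authors, so that 1 unit is a 2-fold difference. Because whole cultures were measured, fewer expressing cells and less RNA per cell cannot be told apart.

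Cells match sterol synthesis to need through the SREBPs, transcription factors that are made as membrane proteins of the endoplasmic reticulum. When sterols run low, SCAP escorts them to the Golgi for cleavage, and the released part enters the nucleus and raises genes of cholesterol and fatty acid synthesis. When sterols are plentiful, INSIG proteins hold SCAP back, while oxysterols activate the LXRs, which raise genes of cholesterol export. Dividing lymphocytes need both cholesterol and fatty acids for new membrane.

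No member passed the thresholds of limma, a log2 fold change over 1 in size with an adjusted p under 0.05, whereas 0.0657% of all genes passed as higher and 0.263% as lower in siLEF1 cells. Among all probe sets 0.0238% passed as higher and 0.183% as lower, and among genes with a mean signal of at least 6 these shares were 0.0872% and 0.281%. In their values, however, most SREBP genes lay on the higher side. At an unadjusted p under 0.05 from limma, 15 of the 33 members (45.5%) were higher in siLEF1 cells and 3 (9.09%) were lower. The same shares were 7.00% and 11.5% over all genes, and 10.7% and 16.1% over the 10324 genes with a mean signal of at least 6. In 18 members (54.5%) both siLEF1 arrays lay above both siNT arrays, against 28.1% of all genes and 32.3% of the brighter ones, and in 4 members (12.1%) below them, against 26.4% and 35.3%. The median log2 fold change of the members was 0.36, beside 0.02 for all genes. Members were chosen with earlier results of these data known, so these shares and this median describe them and are not a test.

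The siLEF1 arrays differed from each other less than the siNT arrays did, with a median absolute difference over all probe sets of 0.147 between siLEF1 replicates and 0.206 between siNT replicates. The array farthest from the others was siNT replicate 2, so the main values are also given against each siNT array alone. Across probe sets its Pearson correlation with the siLEF1 arrays was 0.979 and 0.980, against 0.988 and 0.991 for siNT replicate 1. RNA integrity, read as the 5' minus 3' signal of the ACTB control probe sets, was -1.08 and -1.55 on the siLEF1 arrays, against -1.80 and -1.95 on the siNT arrays. This measure did not overlap between the groups, and its part in the results was not tested. All 8 T-cell markers listed were present, with signals of 6.95 to 12.74, while ALB, APOA1 and TTR of hepatocytes ranged between 2.65 and 5.93, the myeloid markers between 2.90 and 5.58, the B-cell markers between 3.69 and 6.54 and the epithelial markers between 2.38 and 7.45. On the log2 scale the summed T-cell markers were 13.92 and 13.95 on the siLEF1 arrays, against 13.85 and 13.48 on the siNT arrays, the summed epithelial markers 7.56 and 7.54, against 7.91 and 8.02, and the summed myeloid markers 5.83 and 6.01, against 6.30 and 6.38. These sums did not overlap between the groups, and their part in the results was not tested. They weigh the brightest markers most, and single markers went both ways within each list. The log2 fold change was 0.83 for CD3G but -0.38 for TRAT1, -0.60 for KRT18 but 0.13 for EPCAM, and -0.94 for LYZ but 0.25 for ITGAM. For LEF1 itself, the brightest of 3 probe sets read 11.24 and 11.56 in siLEF1 arrays, under 12.30 and 11.92 in siNT arrays, a log2 fold change of -0.71 that did not pass (limma adjusted p = 0.191), and the others were at -0.93 and -0.19.

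**Figure D1:**
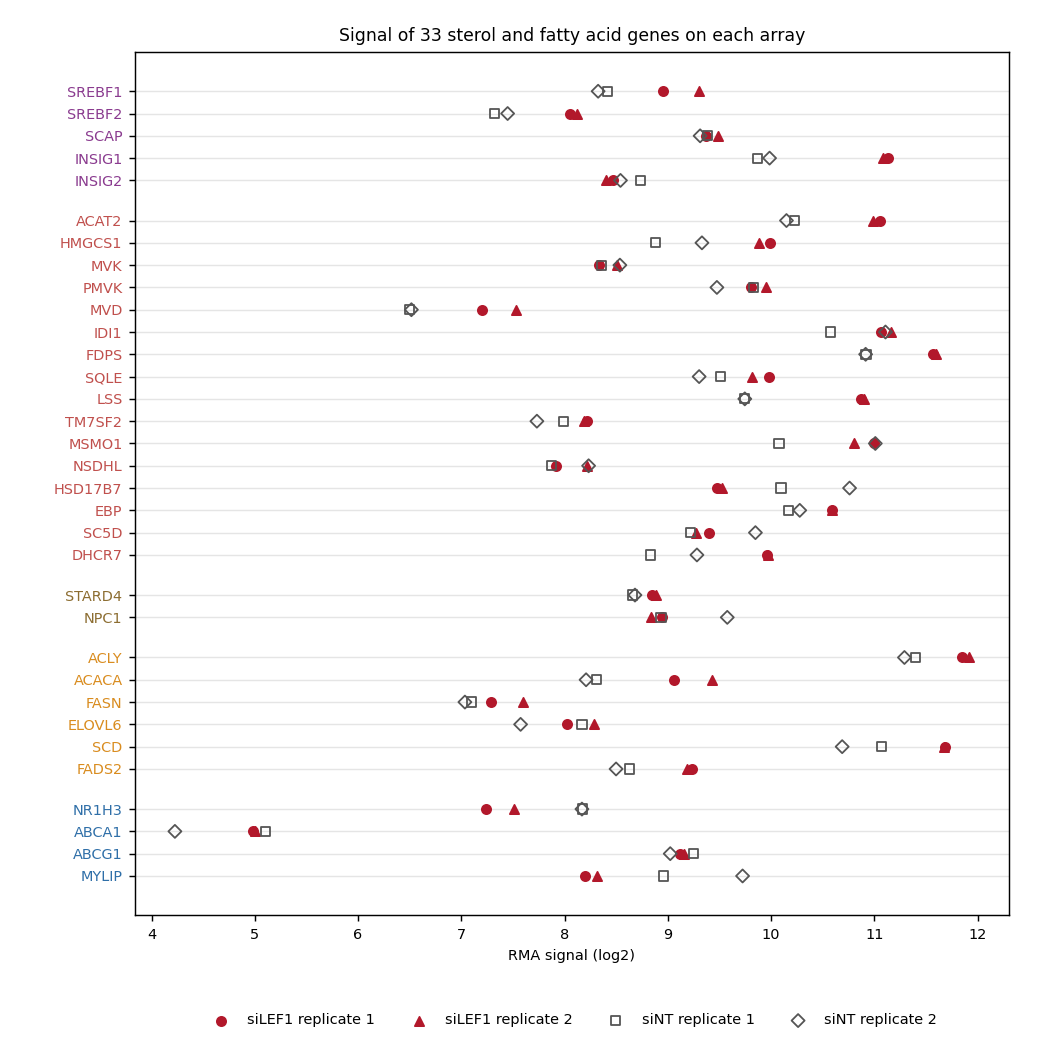
Each measured gene of the 33 is a line, and the horizontal axis gives its log2 RMA signal on each array, where filled circles and triangles are siLEF1 replicates 1 and 2, and open squares and diamonds are siNT replicates 1 and 2. Gene names are coloured by role, in the order regulators, cholesterol synthesis, sterol transport, fatty acid synthesis, and LXR and efflux genes, and in 18 genes both filled marks lie to the right of both open ones.

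The promoters of 29 measured members were found in the RefSeq table (build GRCh38.p14), and 4 are shown. They belong to members with differences described here, and each holds a motif that SREBPs or their partner factor NF-Y are known to bind. Of the motifs marked below, the LSS and FDPS windows hold only the CCAAT box, the motif of NF-Y. Other forms of SREBP site were not searched for. Each window is the stretch of 250 bases that ends just before the transcription start, 5' to 3' on the gene's strand. Capitals mark a sterol regulatory element of the form TCACNCCAC, the E-box palindrome TCACGTGA or a CCAAT box, each searched on both strands, so that a CCAAT box on the other strand reads ATTGG. The motifs do not overlap in these windows. SREBF2 lies at chr22:41832855-41833104 (+ strand), INSIG1 at chr7:155297628-155297877 (+ strand), LSS at chr21:46228775-46229024 (- strand) and FDPS at chr1:155308616-155308865 (+ strand).
SREBF2: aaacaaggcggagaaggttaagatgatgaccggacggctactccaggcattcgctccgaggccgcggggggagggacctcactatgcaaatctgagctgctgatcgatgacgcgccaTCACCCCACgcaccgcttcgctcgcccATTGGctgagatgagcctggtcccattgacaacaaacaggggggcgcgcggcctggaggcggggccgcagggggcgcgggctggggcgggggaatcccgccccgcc
INSIG1: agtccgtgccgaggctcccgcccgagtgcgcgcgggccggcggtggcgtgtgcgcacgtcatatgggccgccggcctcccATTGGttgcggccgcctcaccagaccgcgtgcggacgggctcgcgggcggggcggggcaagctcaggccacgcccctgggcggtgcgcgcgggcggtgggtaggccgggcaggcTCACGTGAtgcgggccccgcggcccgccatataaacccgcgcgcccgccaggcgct
LSS: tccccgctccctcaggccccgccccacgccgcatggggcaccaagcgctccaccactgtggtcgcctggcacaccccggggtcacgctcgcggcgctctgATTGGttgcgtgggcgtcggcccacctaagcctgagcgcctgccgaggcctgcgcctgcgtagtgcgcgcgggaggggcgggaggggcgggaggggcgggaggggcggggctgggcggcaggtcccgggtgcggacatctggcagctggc
FDPS: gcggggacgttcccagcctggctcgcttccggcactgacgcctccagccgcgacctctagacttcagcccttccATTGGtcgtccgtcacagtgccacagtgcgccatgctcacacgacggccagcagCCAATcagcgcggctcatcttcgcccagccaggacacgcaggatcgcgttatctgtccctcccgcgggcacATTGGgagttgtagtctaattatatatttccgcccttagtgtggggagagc

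The SREBF2 window alone among the members holds a sterol regulatory element of that form, and the INSIG1 window alone holds the E-box palindrome, 56 to 49 bases before the start. LSS has a single CCAAT box and FDPS has 3. Among all 35116 promoter windows of this length, 0.883% hold TCACNCCAC, 0.854% the E-box palindrome and 32.0% a CCAAT box. Of the 42 windows of the members, 1, 1 and 25 (59.5%) hold them. Counted by gene, a CCAAT box was found for 21 of the 29 members (72.4%), among them 13 of 14 cholesterol synthesis genes, against 37.0% of all genes. The hexamer CTTTGA, the core that LEF1 and its TCF relatives recognise, was found for 3 of the 29 members (ABCA1, ELOVL6 and IDI1), or 10.3%, against 13.5% of all genes. These are letter matches in short windows and not measured binding.

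Of the 5 regulators, 3 (60%) were higher and 1 (20%) was lower without overlap, against 28.1% and 26.4% of all genes. Their median log2 fold change, that of SREBF2, was 0.70. It was 0.20 with the mean of all probe sets of each gene and 0.47 with the arrays centred on housekeeping genes. INSIG1, which retains SCAP in the endoplasmic reticulum and is itself an SREBP target, had the largest difference of all members. It read 11.13 and 11.09 on the siLEF1 arrays, against 9.87 and 9.98 on the siNT arrays, so the groups lay more than 1 log2 unit apart with replicates within 0.12 of each other. This is a log2 fold change of 1.18 (standard error [SE] 0.15, limma adjusted p = 0.0562, with 2 arrays per group), which ranks 80 by p among all genes. Both other INSIG1 probe sets also had higher signals in both siLEF1 arrays, with log2 fold changes of 1.22 and 0.99. INSIG2, the paralog that holds SCAP in the same way, read 8.47 and 8.40 on the siLEF1 arrays, against 8.74 and 8.54 on the siNT arrays, a log2 fold change of -0.20 (SE 0.15, limma adjusted p = 0.590).

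SREBF2 encodes SREBP-2, which mainly serves cholesterol synthesis. It had 8.05 and 8.12 on the siLEF1 arrays, against 7.32 and 7.45 on the siNT arrays, with no overlap and a log2 fold change of 0.70 (SE 0.15, limma adjusted p = 0.125). This value rests on the probe set chosen. Another SREBF2 probe set of nearly equal mean signal (7.71 against 7.73) read 7.53 and 7.60 on the siLEF1 arrays, against 7.57 and 8.15 on the siNT arrays, a log2 fold change of -0.29 (limma adjusted p = 0.582). SREBF1, which encodes the SREBP-1 proteins of fatty acid synthesis, had 8.95 and 9.30 on the siLEF1 arrays, against 8.42 and 8.32 on the siNT arrays. Its log2 fold change was 0.75 (SE 0.18, limma adjusted p = 0.144), a second probe set was at 0.22 (limma adjusted p = 0.590), and the mean of both was at 0.49. SCAP had 9.37 and 9.48 on the siLEF1 arrays, against 9.38 and 9.31 on the siNT arrays, and its difference of 0.08 was within the spread of the replicates.

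Cholesterol synthesis begins with acetyl-CoA units joined by ACAT2 and HMGCS1. ACAT2, the cytosolic thiolase, had 11.06 and 10.98 on the siLEF1 arrays, against 10.23 and 10.15 on the siNT arrays, a log2 fold change of 0.83 (SE 0.15, limma adjusted p = 0.0952). HMGCS1, which makes HMG-CoA, had 9.99 and 9.88 on the siLEF1 arrays, against 8.88 and 9.33 on the siNT arrays. Its log2 fold change was 0.83 (SE 0.19, limma adjusted p = 0.145), or 1.05 against siNT replicate 1 and 0.60 against siNT replicate 2. A second HMGCS1 probe set, with a mean of 7.42, had overlapping groups and a log2 fold change of 0.51 (limma adjusted p = 0.631).

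The mevalonate steps that follow were not uniform. MVD, the decarboxylase that yields isopentenyl diphosphate, had 7.20 and 7.53 on the siLEF1 arrays, against 6.50 and 6.52 on the siNT arrays, a log2 fold change of 0.86 (SE 0.17, limma adjusted p = 0.111). MVK and PMVK, the kinases before it, had log2 fold changes of -0.03 and 0.22 with overlapping groups. FDPS, which joins isoprene units to farnesyl diphosphate, read 11.57 and 11.59 on the siLEF1 arrays, against 10.92 and 10.91 on the siNT arrays. Its log2 fold change was 0.67 (SE 0.14, limma adjusted p = 0.129). IDI1, the isomerase between MVD and FDPS, had 11.06 and 11.16 on the siLEF1 arrays, against 10.57 and 11.11 on the siNT arrays. Its difference was 0.54 against siNT replicate 1 and 0.0049 against siNT replicate 2.

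In the sterol part of the pathway, LSS, which closes squalene epoxide into lanosterol, stood next to INSIG1. It had 10.87 and 10.90 on the siLEF1 arrays, against 9.74 and 9.74 on the siNT arrays, a log2 fold change of 1.14 (SE 0.14, limma adjusted p = 0.0562) that ranks 88 by p among all genes. The value was 1.15 against siNT replicate 1 and 1.14 against siNT replicate 2. Of 2 much dimmer LSS probe sets, the brighter had overlapping groups and a log2 fold change of 0.26, and the other had 0.89 without overlap. SQLE, the epoxidase upstream, had 9.98 and 9.81 on the siLEF1 arrays, against 9.51 and 9.30 on the siNT arrays, and DHCR7, which completes cholesterol, 9.96 and 9.97 on the siLEF1 arrays, against 8.83 and 9.28 on the siNT arrays. Their log2 fold changes were 0.49 (SE 0.16, limma adjusted p = 0.236) and 0.91 (SE 0.19, limma adjusted p = 0.123), and in both the groups did not overlap. TM7SF2, a sterol reductase, and EBP, a sterol isomerase, had smaller values of 0.34 and 0.37, again without overlap.

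In none of the remaining sterol enzymes did both siLEF1 arrays lie above both siNT arrays. HSD17B7, a ketoreductase that acts in removal of methyl groups from the ring, was the cholesterol synthesis gene with the lowest value. It had 9.47 and 9.53 on the siLEF1 arrays, against 10.10 and 10.76 on the siNT arrays, a log2 fold change of -0.93 (SE 0.24, limma adjusted p = 0.164), or -0.60 against siNT replicate 1 and -1.26 against siNT replicate 2. Its only probe set has an ID ending in _x_at, which marks probes that can also match other sequences. MSMO1, which oxidises those methyl groups, had 11.00 and 10.80 on the siLEF1 arrays, against 10.07 and 11.01 on the siNT arrays, so its direction depended on the siNT array: 0.82 against replicate 1 and -0.11 against replicate 2. NSDHL, its next partner, had a log2 fold change of 0.01, and SC5D, a desaturase, -0.20, both with overlapping groups. Of the 16 measured enzymes of cholesterol synthesis, 9 (56.25%) were higher and 1 (6.25%) was lower without overlap, against 28.1% and 26.4% of all genes. Their median log2 fold change was 0.36. It was 0.48 against siNT replicate 1, where 15 of 16 values were above 0, and 0.44 against siNT replicate 2, where 11 of 16 were. Over all 19775 genes, 10554 values were above 0 against siNT replicate 1 and 10328 against siNT replicate 2.

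**Figure D2:**
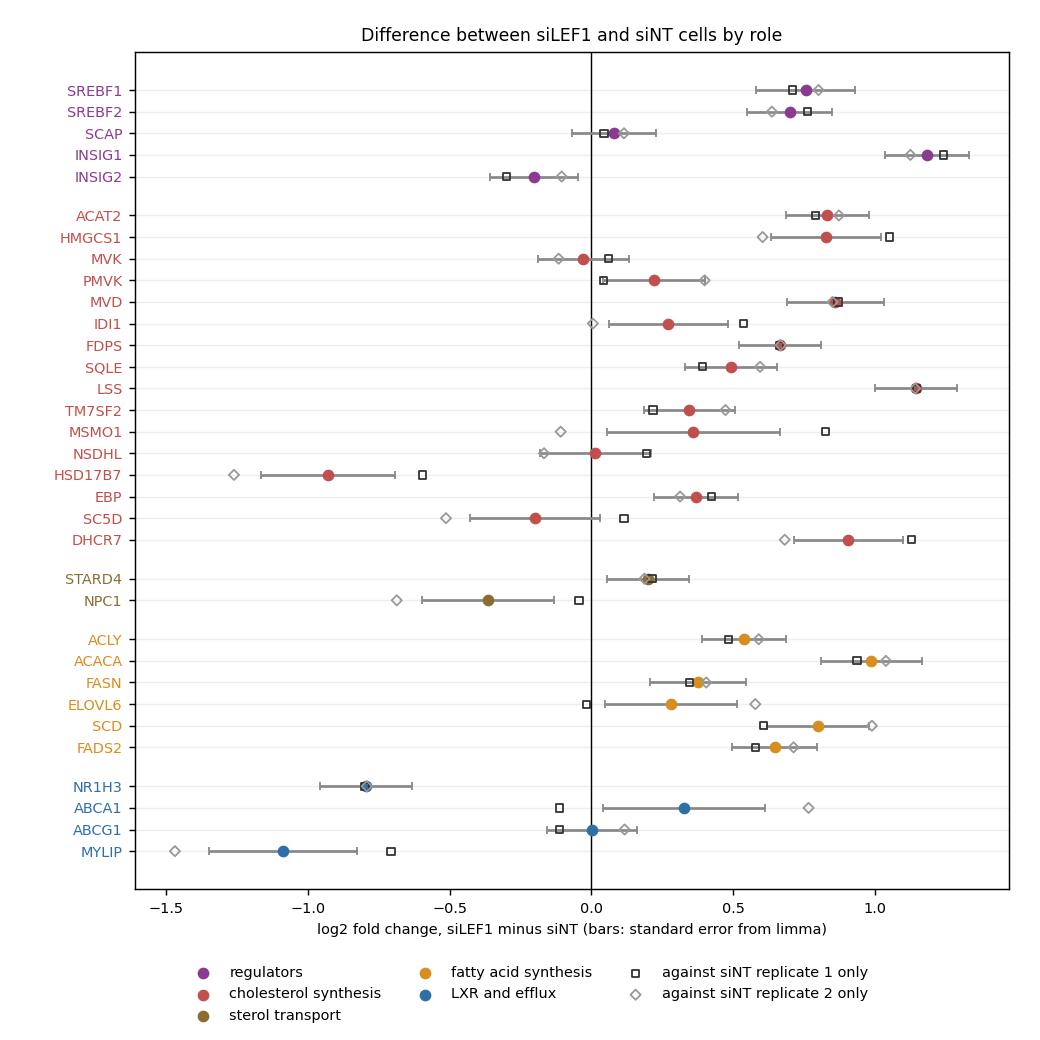
Log2 fold change, siLEF1 minus siNT (horizontal axis), of the 33 genes by role, where filled points are the values from all 4 arrays and bars are standard errors from limma. Open squares and diamonds give the siLEF1 mean against siNT replicate 1 or 2 alone, which lie far apart in MSMO1, ABCA1, MYLIP and HSD17B7 and close together in LSS, NR1H3 and FDPS.

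Sterol transport was represented by STARD4, which carries cholesterol between membranes, and NPC1, which releases it from lysosomes. STARD4 had a log2 fold change of 0.20 (limma adjusted p = 0.566) with no overlap, and NPC1 one of -0.37 (limma adjusted p = 0.514) with overlap, which was -0.04 against siNT replicate 1 and -0.69 against siNT replicate 2.

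All 6 measured genes of fatty acid synthesis had values above 0, with a median of 0.59. In 5 of them (83.3%) both siLEF1 arrays lay above both siNT arrays, against 28.1% of all genes. ACACA, the carboxylase that makes malonyl-CoA, had 9.06 and 9.43 on the siLEF1 arrays, against 8.31 and 8.21 on the siNT arrays, a log2 fold change of 0.99 (SE 0.18, limma adjusted p = 0.0963). A second ACACA probe set, with a mean of 7.57, did not show this and had 0.03 with overlapping groups. SCD, the desaturase that makes oleate, had 11.68 and 11.67 on the siLEF1 arrays, against 11.07 and 10.69 on the siNT arrays, a log2 fold change of 0.80 (SE 0.18, limma adjusted p = 0.137). All 4 SCD probe sets had values above 0, between 0.41 and 0.80.

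FADS2, which begins the synthesis of polyunsaturated fatty acids, had 9.24 and 9.18 on the siLEF1 arrays, against 8.63 and 8.50 on the siNT arrays. Its log2 fold change was 0.65 (SE 0.15, limma adjusted p = 0.142). ACLY, which supplies cytosolic acetyl-CoA from citrate, had 11.84 and 11.92 on the siLEF1 arrays, against 11.40 and 11.29 on the siNT arrays, a log2 fold change of 0.54 (SE 0.15, limma adjusted p = 0.183). FASN, which builds palmitate, was at 0.37 without overlap, and ELOVL6, which lengthens it, at 0.28 with overlap and at -0.02 against siNT replicate 1 alone. In none of the 6 genes was siNT replicate 2 above replicate 1, whereas it was in 11 of the 16 cholesterol synthesis genes. Among all genes it was in 48.8%, and among the brighter ones in 40.6%.

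Of the 4 LXR and efflux genes measured, 0 were higher and 2 (50%) were lower without overlap. The shares were 28.1% and 26.4% over all genes, and 32.3% and 35.3% over the brighter ones. The median log2 fold change of the 4 genes was -0.40. This median was -0.80 among probe sets with a mean signal of at least 6, which leaves out ABCA1, and -0.077 without _x_at and _s_at probe sets. NR1H3, which encodes LXR alpha, had 7.24 and 7.51 on the siLEF1 arrays, against 8.17 and 8.17 on the siNT arrays, a log2 fold change of -0.80 (SE 0.16, limma adjusted p = 0.119). MYLIP, an LXR target whose ubiquitin ligase degrades lipoprotein receptors, had 8.20 and 8.31 on the siLEF1 arrays, against 8.96 and 9.72 on the siNT arrays. Its log2 fold change was -1.09 (SE 0.26, limma adjusted p = 0.150), the lowest of all members, or -0.71 against siNT replicate 1 and -1.47 against siNT replicate 2. The 4 MYLIP probe sets with a mean signal of at least 6 ranged from -1.11 to -0.65 and are all of _s_at or _x_at type, whereas the dimmer ones, of neither type, read -0.21 and 0.06.

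In both cholesterol transporters among them the groups overlapped. ABCG1 had 9.12 and 9.16 on the siLEF1 arrays, against 9.25 and 9.02 on the siNT arrays, a log2 fold change of 0.00. ABCA1 was the dimmest member, with 4.99 and 5.00 on the siLEF1 arrays, against 5.10 and 4.23 on the siNT arrays, close to the array medians of 4.84 to 4.85, so that a change in it could be missed. Its log2 fold change of 0.33 (SE 0.29, limma adjusted p = 0.643) was within the spread of the siNT arrays.

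**Figure D3:**
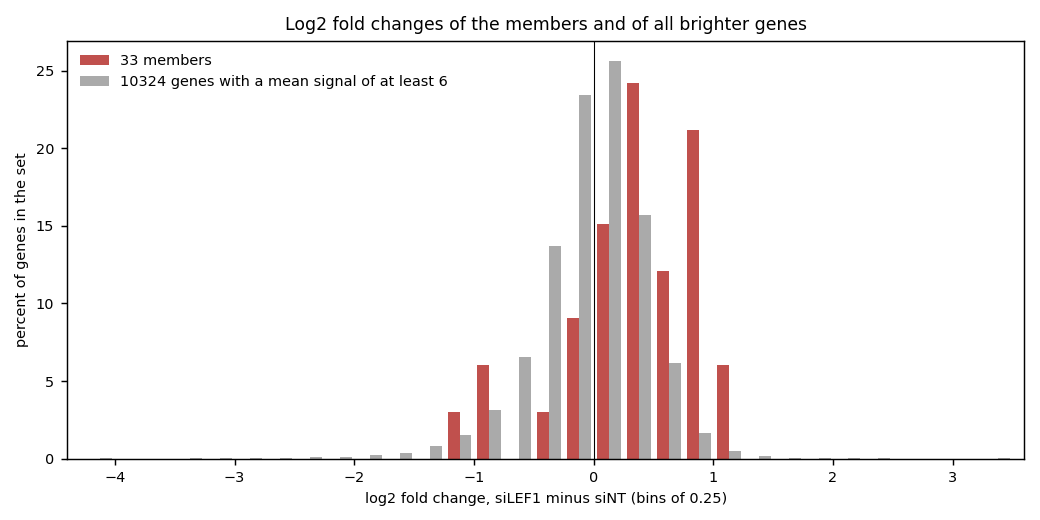
Share of genes (vertical axis, percent of each set) in bins of 0.25 of the log2 fold change, siLEF1 minus siNT, for the 33 members and, in grey, for 10324 genes with a mean signal of at least 6. Of the members, 21.2% lie between 0.75 and 1 and 6.06% between 1 and 1.25, where 1.62% and 0.455% of the brighter genes lie.

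Several members are read by more than 1 probe set. Of 80 single-symbol probe sets of the members, 61 had a mean signal of at least 6, and 18 genes had more than 1 of these. In 14 of the 18 genes all such probe sets had the same sign, and in SREBF2, IDI1, EBP and ABCG1 the signs were mixed. In EBP the probe set on the other side was its dimmest of these, at -0.05. All 3 IDI1 probe sets counted here are of _x_at type, with the brighter ones at 0.27 and 0.31 and the dimmest at -0.42.

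**Figure D4:**
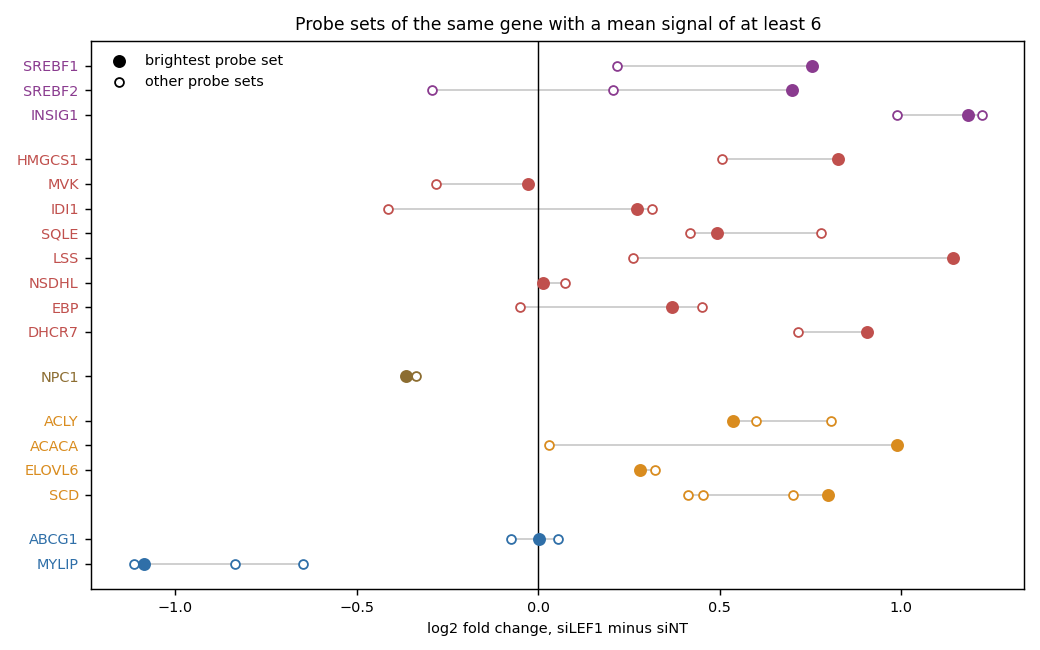
Log2 fold change, siLEF1 minus siNT (horizontal axis), of every probe set with a mean signal of at least 6 in the 18 genes that have more than 1, where the filled point is the brightest probe set and open points are the others. The INSIG1 points lie between 0.99 and 1.22 and the MYLIP points between -1.11 and -0.65, while those of SREBF2, IDI1, EBP and ABCG1 lie on both sides of 0.

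Of 34 other genes of these pathways, 29 were measured, and 0 passed in either direction by limma. At an unadjusted p under 0.05 from limma, 3 were higher (10.3%) and 0 were lower. The same shares were 7.00% and 11.5% over all genes, and 10.7% and 16.1% over the brighter ones, so the higher share was close to that of the brighter genes. Without overlap, 10 (34.5%) were higher and 5 (17.2%) were lower, against 28.1% and 26.4% of all genes. The median log2 fold change was 0.10. TMEM97, a membrane protein regulated by sterols, had 10.96 and 11.01 on the siLEF1 arrays, against 10.18 and 9.90 on the siNT arrays, a log2 fold change of 0.95 (SE 0.17, limma adjusted p = 0.0931). TECR, a reductase of fatty acid elongation, had a value of 0.56 and ERLIN1, a lipid raft protein of the endoplasmic reticulum, 0.38. SCD5, a second desaturase, was at 0.38, and the ubiquitin pathway genes RNF139 and FAF2 were at -0.43 and -0.37, and the limma adjusted p of these genes, TMEM97 apart, was 0.212 or more.

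These values move with the scaling and with single arrays. When the arrays were centred on housekeeping genes, every log2 fold change moved by -0.23, the median of the members was 0.13 beside -0.19 for all probe sets, and 15 members were higher and 9 lower without overlap, where 6.37% of all genes were higher and 54.2% lower. INSIG1 and LSS passed without siNT replicate 1 (limma adjusted p = 0.0465 and 0.0459), where 1.09% of all probe sets passed as higher and 2.36% as lower. They had adjusted p-values of 0.139 to 0.719 and 0.154 to 0.719 in the fits that left out another array, while their log2 fold changes stayed between 1.12 and 1.24.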

How the data were processed

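Jurkat RNA was hybridized to 4 Affymetrix 3' expression arrays, and the titles gave 2 as siLEF1 and 2 as siNT. The authors normalized the signals by RMA with Expression Console, whose version is 1.1 according to the submitters' processing notes, so the deposited values are log2 signals per probe set, without a filter. Raw probe signals were not used, and the number of arrays limits the precision. RMA equalizes the distribution of the arrays, so a change shared by most genes would not be seen.

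The 62 control probe sets were left out and the other 54613 were fitted with limma 3.58.1 in R 4.3.3 (lmFit, eBayes, 2-sided, 2 residual and 4.30 prior degrees of freedom), with Benjamini-Hochberg adjustment over all of them. The thresholds of 0.05 for the adjusted p and 2 for the fold change follow the study's methods, which applied them to an analysis of more groups. The model code was checked on simulated data, with pass marks set at differences larger than those of the members. The check therefore does not show how often differences of their size would be found. Symbols came from the platform annotation, updated by Entrez number (45774 of 45867 found): 41091 probe sets had 1 symbol, 1801 several and 11721 none. Alternatives were a filter on dim probe sets, other moderation, a replicate block, centring on medians or on 11 housekeeping genes, other choices of probe sets, other fold thresholds and each array left out in turn.

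Members and gene lists were chosen with earlier results of these data known. All members are named. Signals are given for regulators and for the 14 members with the smallest p, with some others added after their values were seen (HSD17B7, ACLY, SQLE, MSMO1, IDI1, ABCA1, ABCG1), and values for the 6 other pathway genes with the smallest p.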

Additional observations from a re-analysis of the deposited data

How the results depend on the processing

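Of the 33 members, 22 kept the sign of their log2 fold change in all 13 alternative fits that gave them a value, among them INSIG1, LSS, ACAT2, ACACA, MVD, NR1H3 and MYLIP, and 11 changed sign in at least 1. The cause of these changes was not tested. The number of arrays and the difference between the siNT arrays limit every call.

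No member passed in the main fit. As higher, 2 members, INSIG1 and LSS, passed with a trended, robust eBayes (smallest limma adjusted p = 0.0283). In that fit 0.0366% of all probe sets passed as higher and 0.238% as lower. The same 2 passed with 1 probe set per gene (0.0311 from limma), where 19775 rather than 54613 tests were adjusted for. There 0.147% of genes passed as higher and 0.865% as lower. With the mean of all probe sets of a gene 1, INSIG1, passed (0.0314 from limma), beside 0.126% of genes as higher and 0.870% as lower. With housekeeping centring 0 passed as higher and 1, NR1H3, as lower at -1.02 (limma adjusted p = 0.0386), beside 25 and 1265 probe sets. When each array was left out in turn, 0 to 2 members passed as higher and 0 to 2 as lower, and 0 to 1 of the other pathway genes as higher. All of these calls came without siNT replicate 1, where the lone siNT array is assumed to vary like the siLEF1 arrays, the lower ones were HSD17B7 and MYLIP, and 595 probe sets passed as higher and 1287 as lower. Without siNT replicate 2 or either siLEF1 array no probe set of the array passed. Fold thresholds of 1.5 or none gave the same counts as the main one.

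The labels do not say that replicate numbers mark a shared batch. Across probe sets, the difference of replicate 2 from replicate 1 was only weakly and negatively correlated between the groups (r = -0.155). So weak a correlation cannot settle whether the numbers mark a batch, and they were not taken as pairs. With the replicate number as a block, 2 members passed as higher, INSIG1 and LSS, and 1 as lower, MYLIP, and the calls over all probe sets were 120 higher and 977 lower, against 13 and 100 without the block. With a crossed block, added after seeing the data, 2 members passed as higher and 0 as lower, and 159 and 763 probe sets.

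Left out in turn, the arrays gave 18 to 23 members higher and 5 to 9 lower without overlap, counts that fewer arrays raise by construction. Among all genes these fits gave 37.0% to 42.4% higher and 34.7% to 39.0% lower without overlap. Medians in these fits were 0.35 to 0.48 for cholesterol synthesis and -0.25 to 0.085 for sterol transport, the only role whose median changed sign (0.085 without siNT replicate 2). With the housekeeping centring, 9 members were lower without overlap, where 54.2% of all genes were. The medians were then 0.13 for all members, 0.47 for regulators, 0.14 for cholesterol synthesis, -0.31 for sterol transport, 0.36 for fatty acid synthesis and -0.62 for LXR and efflux genes. Without _x_at and _s_at probe sets, 24 members were measured, of which 11 were higher without overlap, where 28.1% of all genes left were. The medians were then 0.40 for cholesterol synthesis, 0.84 for fatty acid synthesis and -0.077 for LXR and efflux genes. With the mean of all probe sets of a gene they were 0.20 for regulators, 0.021 for sterol transport, which is a change of sign, and -0.28 for LXR and efflux genes. The filter at a mean signal of 6, which removes ABCA1, gave -0.80 for LXR and efflux genes.

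Members that changed sign had small values or values that depended on the probe set or on the siNT array. With housekeeping centring SCAP was at -0.15, PMVK at -0.0068, NSDHL at -0.21, STARD4 at -0.028 and ABCG1 at -0.23, and with median centring ABCG1 was at -0.00013. IDI1 was at -1.01 without _x_at and _s_at probe sets, where only a dim probe set was left, and at -0.21 with the mean of all its probe sets. When each array was left out in turn, MVK ranged from -0.12 to 0.059, MSMO1 from -0.11 to 0.82, NSDHL from -0.17 to 0.19, SC5D from -0.51 to 0.11, ELOVL6 from -0.018 to 0.58, ABCA1 from -0.11 to 0.77 and ABCG1 from -0.11 to 0.12, with siNT replicate 1 or 2 as the array left out at both ends. MYLIP, without its _x_at and _s_at probe sets, was at -0.21.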
